A study of Arabidopsis thaliana with 6 samples.

Results

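The stomatal lineage regulators described here were 10 genes chosen by name, and all 10 had a probe set among the 21428 measured. They were SPCH (AT5G53210_at), MUTE (AT3G06120_at), FAMA (AT3G24140_at), ICE1 (AT3G26744_at), TMM (AT1G80080_at), SDD1 (AT1G04110_at), BASL (AT5G60880_at), EPF1 (AT2G20875_at), EPF2 (AT1G34245_at) and ERL1 (AT5G62230_at). RNA came from leaves 1 and 2 of Arabidopsis thaliana seedlings of accession Columbia-0, grown in vitro for 8 days and then kept on 5 µM dexamethasone for 8 h. There were 3 Affymetrix ATH1 arrays from AN3-GR seedlings and 3 from wild type seedlings, and both genotypes received dexamethasone. In AN3-GR the growth coactivator AN3 is joined to the steroid-binding part of a glucocorticoid receptor, and dexamethasone releases the fusion to act. The labels do not give the promoter that drives the fusion or the number of lines, and untreated AN3-GR seedlings were not analysed here, so a standing difference between the lines and a response to the activated fusion cannot be told apart. The comparison asked which transcripts differ between AN3-GR and wild type leaves at the transition from cell proliferation to expansion.

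Stomata arise from a dispersed lineage of epidermal cells that divides asymmetrically while neighbouring leaf cells still proliferate. The bHLH factors SPCH, MUTE and FAMA act one after another, SPCH starting the lineage, MUTE ending its self-renewing divisions and FAMA setting the last division and guard cell identity, and each pairs with ICE1 (also called SCRM) or the related SCRM2. Secreted peptides such as EPF1 and EPF2 restrain the lineage through receptor kinases of the ERECTA family and the receptor-like protein TMM, upstream of a MAP kinase cascade that acts on SPCH. The polarity protein BASL marks the side of a dividing lineage cell away from the future stoma.

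None of the 10 regulators differed detectably between AN3-GR and wild type leaves. In limma with Benjamini-Hochberg adjustment over all probe sets, 0 of 10 passed an adjusted p of 0.05 as higher and 0 as lower, where 0.560% of all probe sets passed as higher, 0.229% as lower and 0.789% in either direction. With the replicate number as a block 0 of 10 passed as well, against 3.59% of all probe sets higher, 3.03% lower and 6.63% in all. Without the block 0 had an unadjusted p under 0.05, against 18.0% of all probe sets. The changes ran from −0.24 for MUTE to 0.07 for ERL1 on the log2 scale, with a median of −0.07 beside −0.02 over all probe sets. Changes of the regulators were negative for 9 of 10, beside 54.2% of all probe sets. The 95% confidence intervals, each for 1 gene and not joint over the 10, reached at most 1.41-fold lower in AN3-GR (MUTE) and at most 1.31-fold higher (ERL1). Given the standard errors, from 0.09 to 0.14, a change of 0.49 (BASL) to 0.79 (FAMA) on the log2 scale would have been needed to pass in the fit without the block. On these same arrays AN3 had a log2 change of 3.05 (limma adjusted p = 0.000303, SE 0.19), at values of 10.56, 10.02 and 10.55 in AN3-GR and 7.39, 6.98 and 7.61 in wild type. How much of that difference was the transcript of the fusion itself was not tested. A change of that size does not bear on whether changes near 0.49 can be detected.

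All values below are expression values on the log2 scale, given in the order of replicates 1, 2 and 3, and errors beside means are SD with n = 3. Each regulator had a mean over all arrays above 4.06, the lower quartile of all probe-set means. Lower quartiles of the arrays were 3.99 to 4.05, apart from 4.21 and 4.13 on wild type replicates 1 and 2. The leaf carbonic anhydrase CA1 had 12.78 to 13.11 in AN3-GR and 13.26 to 13.37 in wild type, while 4 of 6 meristem markers and 2 of 3 measured root markers lay under that lower quartile. In whole leaves, fewer lineage cells and less RNA per cell cannot be told apart.

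The first group was the bHLH factors, whose 4 changes were all negative and none called. SPCH, the factor that starts the lineage, had values of 8.11, 8.03 and 7.77 in AN3-GR and 8.06, 7.92 and 8.09 in wild type. The genotypes overlapped, and the lowest value was that of AN3-GR replicate 3. Means were 7.97 ± 0.18 and 8.02 ± 0.09, with a log2 change of −0.05 (95% interval −0.31 to 0.21; limma adjusted p = 0.846). Without AN3-GR replicate 3 the change of SPCH was 0.05, and without both arrays of replicate 3 it was 0.08, so its sign rested on that library.

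MUTE, which ends the self-renewing divisions, had the largest difference of the 10. Its values were 5.78, 5.54 and 5.92 in AN3-GR and 5.98, 6.004 and 5.98 in wild type. All AN3-GR arrays lay below all wild type arrays, the nearest being AN3-GR replicate 3. The wild type SD was 0.015 and the AN3-GR SD 0.19, around means of 5.99 and 5.75. The log2 change was −0.24 (SE 0.11, 95% interval −0.49 to 0.01), with an adjusted p of 0.305 in limma and 0.193 with the replicate block. It stayed negative without any single array, between −0.32 and −0.13, the latter without AN3-GR replicate 2, the array with the lowest MUTE value.

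FAMA, which acts last in the series, had 6.25, 5.96 and 5.73 in AN3-GR and 6.09, 6.27 and 5.95 in wild type. The ranges overlapped, replicate 3 was the lowest array of each genotype, and AN3-GR replicate 3 lay below all wild type arrays. FAMA had a log2 change of −0.12 (95% interval −0.45 to 0.20; limma adjusted p = 0.690). It was 0.00348 without AN3-GR replicate 3 and −0.26 without AN3-GR replicate 1. FAMA was among the more variable regulators, since 17.0% of all probe sets had a larger residual SD.

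ICE1, the partner of these factors, had 9.83, 9.67 and 9.64 in AN3-GR and 9.89, 9.74 and 9.67 in wild type. Replicate 1 was highest and replicate 3 lowest in both genotypes. The log2 change was −0.06 (95% interval −0.29 to 0.17; limma adjusted p = 0.801), and AN3-GR was lower in each pair of arrays of the same number, by 0.06, 0.08 and 0.03. Without wild type replicate 1 the change was 0.00498. The related SCRM2 had 9.72, 9.90 and 9.86 in AN3-GR and 10.01, 10.17 and 10.12 in wild type, which did not overlap. Its log2 change was −0.28 (SE 0.10; limma adjusted p = 0.186, and 0.0779 with the replicate block). Neither partner passed, and whether the changes of SCRM2 and ICE1 differ was not tested.

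**Figure D1:**
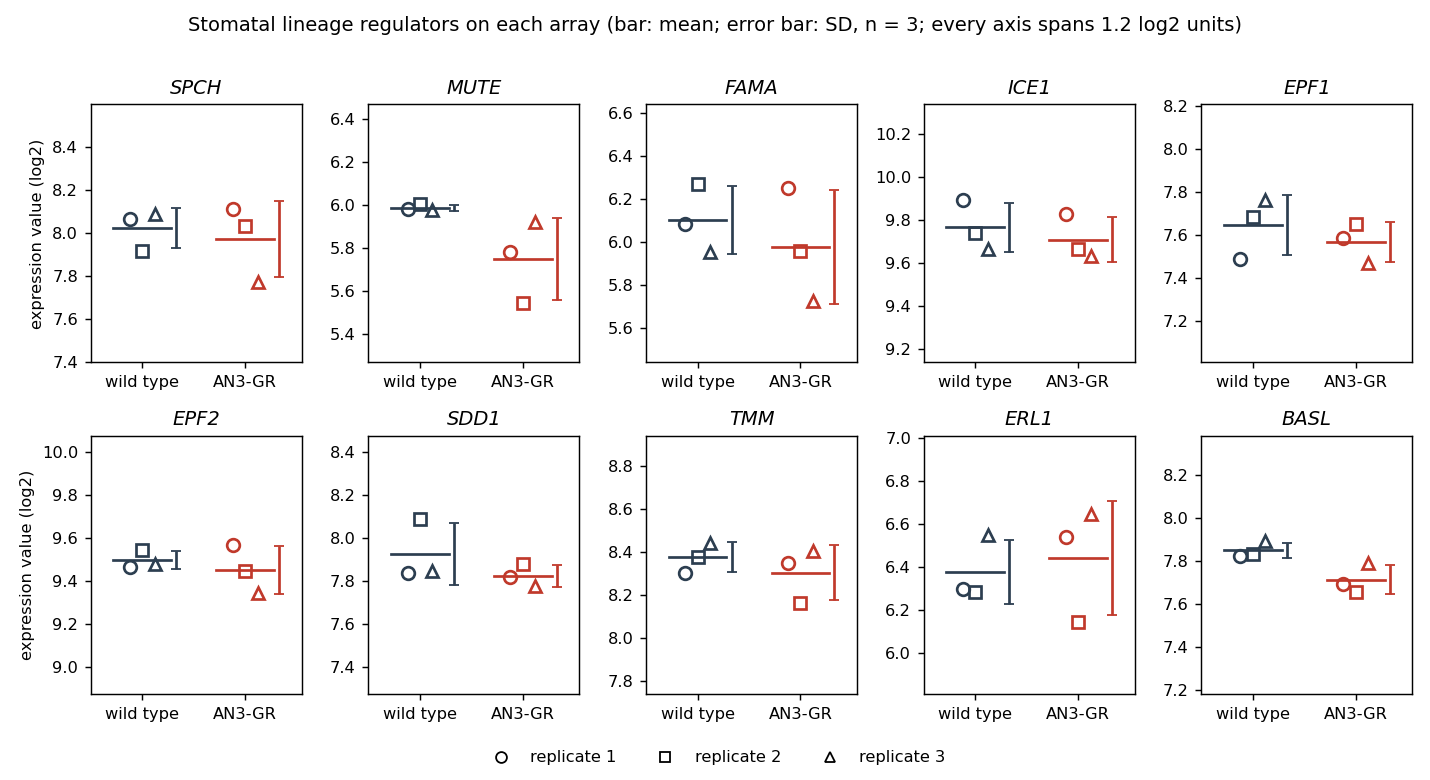
Expression value (log2) of each stomatal lineage regulator on the 6 arrays, with symbols for replicates 1 to 3, a line for the mean and an error bar for the SD (n = 3 per genotype). Every axis spans 1.2 log2 units, and the genotypes overlap except for MUTE and BASL, whose AN3-GR arrays all lie below the wild type arrays.

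Among the secreted regulators no difference was called either. EPF1, a peptide that acts late in the lineage to space stomata and guide divisions, had 7.59, 7.65 and 7.47 in AN3-GR and 7.49, 7.68 and 7.76 in wild type. Replicate 1 was higher in AN3-GR and replicate 3 in wild type, so the pairs pointed in opposite directions. EPF1 had a log2 change of −0.08 (95% interval −0.32 to 0.16; limma adjusted p = 0.741). It was −0.15 without wild type replicate 1, −0.02 without wild type replicate 3 and 0.03 without both arrays of replicate 3.

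EPF2, the early peptide that limits entry into the lineage, had 9.57, 9.45 and 9.34 in AN3-GR and 9.47, 9.55 and 9.48 in wild type. Its highest and lowest arrays were both AN3-GR. The log2 change was −0.05 (95% interval −0.26 to 0.17; limma adjusted p = 0.832), and it was 0.00778 without AN3-GR replicate 3. SDD1, a subtilisin-like protease that lowers stomatal density, had 7.82, 7.88 and 7.78 in AN3-GR and 7.84, 8.09 and 7.85 in wild type. Wild type replicate 2 stood above the other arrays, which lay within a narrow range. The log2 change of SDD1 was −0.10 (95% interval −0.33 to 0.13; limma adjusted p = 0.641), and −0.02 without wild type replicate 2.

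TMM, the receptor-like protein found in lineage cells, had 8.35, 8.16 and 8.41 in AN3-GR and 8.30, 8.38 and 8.44 in wild type. Only AN3-GR replicate 2 lay below the wild type range. TMM had a log2 change of −0.07 (95% interval −0.30 to 0.16; limma adjusted p = 0.748), and it was 0.000893 without AN3-GR replicate 2.

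ERL1, an ERECTA-family receptor kinase, was the 1 regulator with a positive change. Values were 6.54, 6.14 and 6.65 in AN3-GR and 6.30, 6.28 and 6.55 in wild type. AN3-GR held both the lowest and the highest array, and replicate 3 was the highest of each genotype. ERL1 had a log2 change of 0.07 (95% interval −0.26 to 0.39; limma adjusted p = 0.843), at 0.22 without AN3-GR replicate 2 and −0.04 without AN3-GR replicate 3. Its paralog ERL2 had 6.19, 5.81 and 6.26 in AN3-GR and 5.86, 5.90 and 6.28 in wild type, again with AN3-GR replicate 2 lowest and replicate 3 highest in each genotype. Whether the probes of these related genes detect each other's transcripts was not tested. ERECTA itself (ER) had 10.18, 10.23 and 10.29 in AN3-GR and 9.95, 9.97 and 10.06 in wild type, without overlap. The log2 change of ER was 0.24 (SE 0.09; limma adjusted p = 0.211, and 0.109 with the replicate block), so 0 of the 3 receptor kinases of the family passed.

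BASL, the polarity protein, had the least spread of the 10 regulators, and 94.6% of all probe sets had a larger residual SD. Its values were 7.70, 7.66 and 7.79 in AN3-GR and 7.83, 7.83 and 7.89 in wild type. All AN3-GR arrays lay below all wild type arrays. The log2 change was −0.14 (SE 0.09, 95% interval −0.34 to 0.07; limma adjusted p = 0.455, and 0.305 with the replicate block), and −0.17 to −0.11 without any single array.

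**Figure D2:**
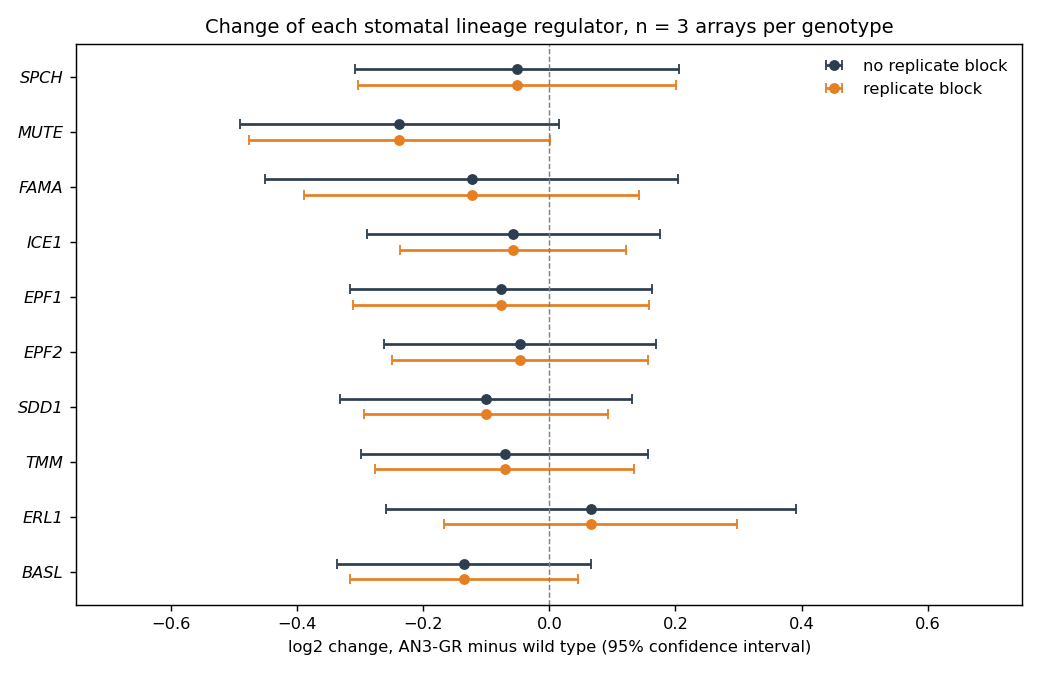
Log2 change of each regulator (AN3-GR minus wild type, points) with its 95% confidence interval (bars), from limma without and with the replicate number as a block, on 3 arrays per genotype. The intervals reach down to −0.49 for MUTE and up to 0.39 for ERL1, and each includes 0 in both fits, with the upper bound of MUTE near 0.

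A complete separation of the genotypes was seen for MUTE and BASL. These 2 of 10 were lower in AN3-GR without overlap and 0 of 10 were higher, while 9.40% of all probe sets were lower without overlap, 12.8% higher and 22.2% either. Between arrays of the same number, MUTE, ICE1, SDD1 and BASL were lower in AN3-GR in all 3 pairs, 4 of 10 regulators beside 23.6% of all probe sets, and 0 of 10 were higher in all 3 beside 24.2%. The remaining 6 regulators had pairs of both signs. The pair differences of MUTE were −0.20, −0.46 and −0.05, and those of BASL were −0.13, −0.18 and −0.10. Averaged over the 10 regulators, the arrays stood at 7.61 to 7.75 in AN3-GR and 7.72 to 7.78 in wild type, which overlapped.

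**Figure D3:**
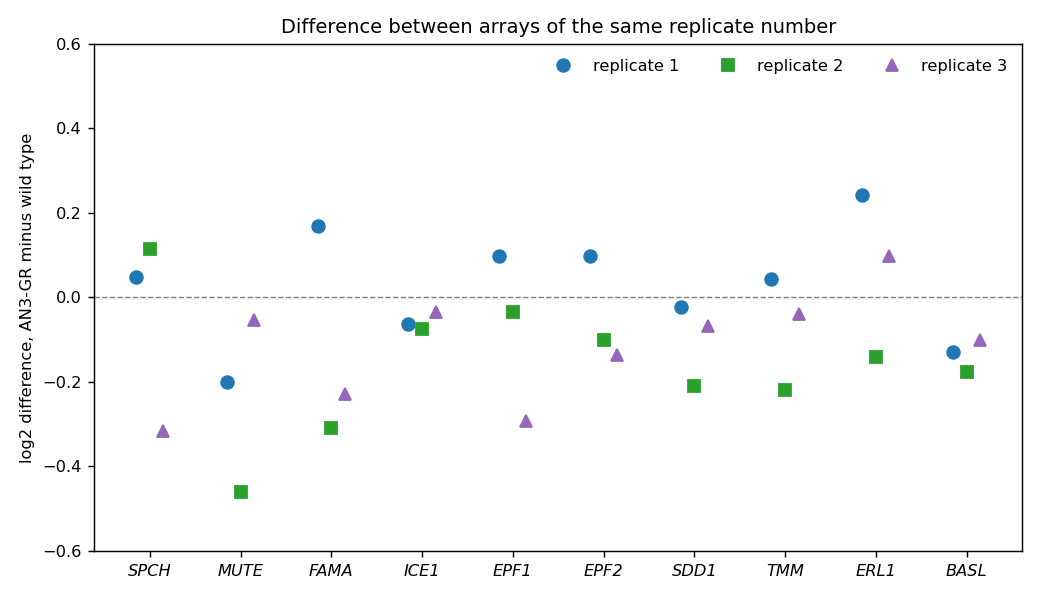
Log2 difference between the AN3-GR and the wild type array of the same replicate number for each regulator, with a symbol per number. Points of MUTE, ICE1, SDD1 and BASL all lie below 0, those of the other regulators lie on both sides, and the differences run from −0.46 to 0.24.

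Other genes of the pathway were read from lists of signalling genes, polarity proteins, further lineage factors and guard cell genes, with 39 of 46 measured. Of the 39, 0 passed as higher and 0 as lower in limma, and with the replicate block 0 were higher and 1 was lower, where 3.59% and 3.03% of all probe sets passed. Their median log2 change was −0.00445, beside −0.02 over all probe sets, and 20.5% had no overlap between genotypes, beside 22.2% of all probe sets. The largest difference was that of MPK3, a MAP kinase of the stomatal cascade that is also induced by stress. MPK3 had 8.80, 9.07 and 9.52 in AN3-GR and 9.45, 10.01 and 10.15 in wild type. The ranges overlapped slightly, since AN3-GR replicate 3 lay above wild type replicate 1, but AN3-GR was lower in each same-number pair, by 0.65, 0.93 and 0.63. Its log2 change was −0.74 (SE 0.21; limma adjusted p = 0.134), and MPK3 passed as lower with the replicate block (adjusted p = 0.0191).

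In the signalling list, with 13 of 15 measured, the median change was 0.07. MKK5, a MAP kinase kinase of the same cascade, had 7.84, 7.65 and 7.84 in AN3-GR and 7.27, 7.37 and 7.63 in wild type. These did not overlap, although AN3-GR replicate 2 and wild type replicate 3 nearly met. The log2 change of MKK5 was 0.36 (SE 0.12; limma adjusted p = 0.167, and 0.0785 with the block). The related kinases had log2 changes of −0.14 for MKK4, 0.07 for MPK6 and 0.04 for YDA, the kinase at the head of the cascade. EPFL9 (STOMAGEN), a peptide made in the mesophyll that promotes stomata and competes with EPF1 and EPF2, had 10.75, 10.85 and 10.58 in AN3-GR and 10.92, 11.05 and 10.70 in wild type. Each pair was lower in AN3-GR, while the ranges overlapped (log2 change −0.16, SE 0.12; limma adjusted p = 0.502, and 0.224 with the block). Leaving out wild type replicate 3 gave −0.26, and leaving out wild type replicate 2 or AN3-GR replicate 3 gave −0.09. On the same arrays the mesophyll-rich transcript CA1 had a log2 change of −0.43 (limma adjusted p = 0.103), which passed as lower with the replicate block (adjusted p = 0.0412). Its part in the EPFL9 values was not tested, and CA1 was the 1 of 4 listed mesophyll genes that was measured. The coreceptors SERK1 and SERK2 had changes of 0.12 and 0.11, and BAK1 had 0.07.

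The polarity list had 5 of 7 genes measured and a median of −0.03. Its largest positive change was that of POLAR, a BASL partner in the cell cortex, at 0.11 (limma adjusted p = 0.592). The largest negative one was that of BSU1, a phosphatase of brassinosteroid signalling, at −0.29 (limma adjusted p = 0.405). Values of BSU1 were lower in AN3-GR in replicates 1 and 2 and higher by 0.15 in replicate 3, and its change was −0.13 without wild type replicate 1, −0.45 without wild type replicate 3 and −0.17 once AN3-GR replicate 2 was left out. POLAR was 7.80 to 7.83 in AN3-GR and 7.56 to 7.80 in wild type, so that only wild type replicates 1 and 2 stood lower. Without wild type replicate 2 the change of POLAR was 0.04.

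Among the further lineage factors, 11 of 13 measured with a median of 0.02, CYCD5;1 and SCRM2 had the largest differences. CYCD5;1, a D-type cyclin, had 5.96, 5.98 and 5.93 in AN3-GR and 5.73, 5.50 and 5.77 in wild type, without overlap. Its log2 change was 0.29 (SE 0.10; limma adjusted p = 0.183, and 0.110 with the block). FLP, a MYB factor that stops guard cell divisions, had a change of 0.17 (adjusted p = 0.379), and RBR1, the retinoblastoma homolog, 0.19 (adjusted p = 0.348), both from limma. The epidermal homeodomain factors ATML1, PDF2 and HDG2 had changes of −0.00445, 0.11 and −0.16.

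Guard cell genes, 10 of 11 measured, had a median change of −0.07, with 3 changes positive and 7 negative. In either fit 0 were called, where 0.789% of all probe sets passed without the block and 6.63% with it. KAT2, an inward potassium channel, had 8.34, 8.23 and 8.28 in AN3-GR and 7.66, 8.05 and 7.99 in wild type. All AN3-GR arrays lay above wild type, where replicate 1 was the lowest. The log2 change of KAT2 was 0.38 (SE 0.12; limma adjusted p = 0.147, and 0.0932 with the block). GORK, an outward potassium channel, had the largest negative change at −0.33 (SE 0.14; limma adjusted p = 0.250), with ranges that overlapped. KAT1 varied with the replicate number, at 5.92, 6.72 and 5.58 in AN3-GR and 5.99, 6.65 and 5.77 in wild type. Only 0.387% of all probe sets had a larger residual SD than KAT1, and its log2 change was −0.07 (SE 0.30). The channel SLAC1 had a change of −0.16, the kinase OST1 −0.07 and the factor MYB60 0.12. ALMT12 had a change of −0.28 (limma adjusted p = 0.280, and 0.149 with the block). In the list 3 of 10 genes, GORK, ALMT12 and HT1, were lower in AN3-GR in all same-number pairs, beside 23.6% of all probe sets. Only 1 was higher in all pairs, beside 24.2%. The pair differences of HT1 were −0.03, −0.003 and −0.02.

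**Figure D4:**
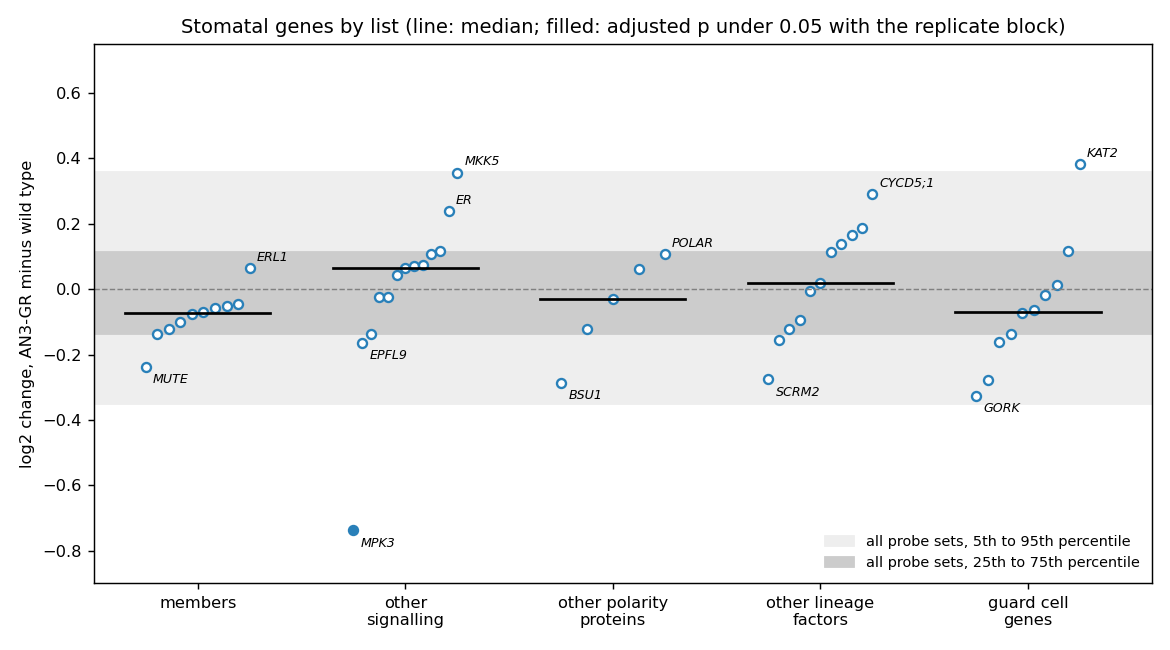
Log2 change (AN3-GR minus wild type) of the 10 regulators and of the 39 measured genes in 4 lists of the pathway, a point per gene and a line at each list's median, over bands that hold the central part of all 21428 probe sets. MPK3 at −0.74 is the filled point, which passed with the replicate block, and MPK3 and KAT2 lie outside the wider band.

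The probe sets whose values over the 6 arrays were most like those of SPCH were sought among 16070 as a description. STL2P, AT5G14550 and ADF3, an actin-depolymerising factor, had Pearson's r of 0.95, 0.944 and 0.943 with SPCH, and 14 probe sets reached 0.9. Among the regulators and the pathway lists, MYB88 had 0.822, EPF2 0.649 and PDF2 0.639. These describe 6 arrays of 2 genotypes on which SPCH spanned only 7.77 to 8.11, and MYB88 had a weak signal of 3.01 to 3.35.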

How the data were processed

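The authors deposited log2 values made with RMA, per the submitters' processing notes, which also list limma and give no versions. The row names hold 1 Arabidopsis locus per probe set. RMA includes a quantile normalization of probe intensities, while the deposited arrays still had medians from 6.22 to 6.32. A genome build and a probe grouping are not stated in those notes. Gene names came from the RefSeq table of TAIR10.1, which matched 21231 of 21428 loci. Values were used unfiltered and compared with limma 3.58.1 in R 4.3.3 (lmFit, eBayes, two-sided, 6 arrays, Benjamini-Hochberg over all probe sets), a fit tested on simulated data. With 3 arrays per genotype, their number limits the precision, and p-values rest on the spread between these samples, described as biological repeats. In eBayes the variance of each gene is also drawn toward a value estimated over all probe sets. For BASL, with a residual SD of 0.05, the SE of 0.09 rests partly on that value.

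Members and lists were chosen with earlier results of these data known. All 10 members were named, and from each pathway list the largest rise and fall and any gene past the test in either fit. The values of ER, ERL2, EPFL9 and other list genes were added after they had been seen. SPCH was compared with probe sets over the lower quartile. Same-numbered arrays of the 2 genotypes deviated together from their group means (r = 0.161, 0.416 and 0.494, each over a bound of 0.1). The pairing rests on the labels' numbers and this check. Arrays of different numbers were not compared in this way, and the 3 correlations are not independent, being taken from shared group means. The check therefore cannot show that a number marks a true pair. In limma the replicate number term itself had an adjusted p under 0.05 for 0 of 21428 probe sets. Among the 10 members, 4, 5 and 7 deviated with the same sign in replicates 1, 2 and 3. Sequences were not analysed here.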

Additional observations from a re-analysis of the deposited data

How the results depend on the processing

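The count of 0 regulators called held under all 12 other settings, with limma adjusted p-values no lower than 0.192 (MUTE, without both arrays of replicate 3). In those settings the share of all probe sets called ran from 0.0420% (without wild type replicate 2) to 6.63% (replicate block). At such shares a count of 0 among 10 genes says little about the regulators. Their median log2 change lay between −0.12 and −0.03 without single arrays, and was −0.11 after another quantile normalization and after centring each array on its median. In these scalings 9 of 10 changes were again negative. MUTE, BASL and SDD1 kept a negative change throughout, 3 of 10, and the other 7 turned sign in at least 1 setting, always uncalled. The replicate block changed the call of no regulator in this paired analysis, while it added MPK3 (adjusted p = 0.0191) and CA1 (0.0412), and CA1 also passed with an intensity trend and robust prior (0.0324).

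Counts over all probe sets moved far more. Of 169 called, 120 were higher and 49 lower. The block gave 1420 (770 higher, 650 lower), and the trend with robust prior 558 (380 and 178). Without both arrays of replicate 3 there were 74 (48 and 26), and without single arrays 9 to 779 (5 to 468 higher, 4 to 311 lower). Another quantile normalization gave 101 lower, leaving out the weakest 25% of probe sets 74 lower, and centring on medians 69 higher and 70 lower. The share of higher calls was thus 49.6% after centring and 58.1% after quantile normalization, in place of 71.0%. The cause of these moves was not tested. With 3 arrays per genotype in the fit behind the 169 calls, a regulator's change under 0.49 on the log2 scale could not pass. That bound was not computed for the other settings, among them the block and the trend with robust prior.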

Other observations

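Trichomes are the other specialised cells of the leaf epidermis, and their markers were read as well. Of 7 listed 6 were measured, with a median log2 change of 0.24. In either limma fit 0 passed, where 0.789% of all probe sets passed without the block and 6.63% with it. GL1, a MYB factor that starts trichomes, had 6.27, 6.20 and 6.59 in AN3-GR and 5.55, 5.27 and 6.73 in wild type. Wild type replicate 3 lay above every AN3-GR array, and the log2 change of GL1 was 0.51 (SE 0.32; limma adjusted p = 0.4375). TTG1, a WD40 protein that acts with GL1, had 7.57, 7.55 and 7.56 in AN3-GR and 7.71, 7.90 and 7.97 in wild type, without overlap (log2 change −0.30; limma adjusted p = 0.163). Of the 6 trichome changes 4 were positive and 2 negative. CPC had a change of 0.36, MYB23 0.27, GL2 0.21 and TRY −0.06. In the replicate 3 pair the differences were negative for GL1 (−0.14), CPC (−0.14), MYB23 (−0.18), TRY (−0.26) and TTG1 (−0.42). That of GL2 was 0.04. Over all 3 same-number pairs 0 of the 6 were higher in AN3-GR, beside 24.2% of all probe sets. Lower in all 3 was 1, beside 23.6%. Vascular markers had a median of −0.05 over 6 genes, meristem markers −0.04 over 6 and root markers −0.12 over the 3 measured of 4. In these lists 0 were called in either fit, beside the same shares of all probe sets.

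The genes next to the regulators in the gene table were also read, a choice made after seeing the data. Of 20 such neighbours 16 were measured, with changes from −0.32 to 0.16. In limma 0 passed without or with the block, where 0.789% and 6.63% of all probe sets passed. SPCH lies beside TRY, a trichome inhibitor, which had a change of −0.06 (SE 0.11). MUTE lies beside MKP2, a MAP kinase phosphatase, at 0.08 (SE 0.10). BASL has MYB34, a regulator of indole glucosinolates, as its neighbour, at −0.17 (SE 0.12).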
